A study of Mus musculus with 24 samples.

Results

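Genes of sterol and fatty acid synthesis were followed in mouse bone marrow-derived macrophages of floxed and Cre-carrying genotypes for Smad2 and for Smad3, which transduce TGF-β signals. The set holds 32 genes, chosen by name from the SREBP pathway and the enzymes that make cholesterol and fatty acids. All 32 were found by gene name among the 54532 genes of the count table, each under 1 identifier, and all 32 passed the filter on low counts that left 14261 genes for testing.

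The cells came from the tibial marrow of C57BL/6 mice aged 2 to 3 months and were grown in CSF-1. There were 4 genotypes: MyS2KO and its floxed reference Smad2fl/fl, and MyS3KO and its floxed reference Smad3fl/fl. The 2 MyS genotypes carry the same floxed alleles plus LyzM-Cre, which deletes in cells that express lysozyme M, so the floxed references carry the floxed allele but no Cre. Cells of each genotype either received TGF-β1 at 10 ng/ml for 4 h or stayed untreated, in both cases after about 16 h without serum, and each of the 8 groups had 3 polyA RNA-seq libraries. A serum-free medium supplies no lipoprotein, and all 24 libraries share that state. The labels do not say whether the 3 libraries of a group came from separate animals, so p-values measure the spread between these libraries, which may be technical.

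Cells make cholesterol from acetyl-CoA through mevalonate, farnesyl diphosphate, squalene and lanosterol. The genes of this route, and those of fatty acid synthesis and desaturation, are targets of the SREBP transcription factors, which are held in the endoplasmic reticulum by the escort protein SCAP and the anchors INSIG1 and INSIG2 while sterol is plentiful and are released to the Golgi and then the nucleus when sterol runs low. In macrophages the same pathway is known for its balance with LXR-driven cholesterol export and for supplying membrane lipid. The set was read by role: 7 genes from acetyl-CoA to farnesyl diphosphate, 11 from squalene to cholesterol, 6 for the SREBP factors with their escort, anchors and a sterol carrier, and 8 for fatty acid synthesis, elongation and desaturation.

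SREBPs act at sterol response elements close to the start of transcription, usually beside a CCAAT box read by NF-Y. RefSeq promoters of the GRCm38.p6 build, from 250 bases before to 50 bases after the start, were at hand for 25 of the 32 genes. The promoters below belong to 3 of the 5 genes whose RNA was higher in MyS3KO than in Smad3fl/fl macrophages under both treatments (values follow). Of the others, the table's Acaca window begins inside the gene and held neither motif. Capitals mark the classic sterol response element TCACCCCAC and every CCAAT box, which reads ATTGG where it lies on the other strand.
Hmgcs1 promoter, chr13:119690101-119690400, plus strand: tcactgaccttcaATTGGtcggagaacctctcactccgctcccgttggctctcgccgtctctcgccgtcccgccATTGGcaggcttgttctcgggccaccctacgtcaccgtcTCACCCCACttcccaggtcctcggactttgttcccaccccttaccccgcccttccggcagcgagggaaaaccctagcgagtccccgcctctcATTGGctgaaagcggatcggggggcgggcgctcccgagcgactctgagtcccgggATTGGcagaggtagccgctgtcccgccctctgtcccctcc
Ebp promoter, chrX:8193463-8193762, minus strand: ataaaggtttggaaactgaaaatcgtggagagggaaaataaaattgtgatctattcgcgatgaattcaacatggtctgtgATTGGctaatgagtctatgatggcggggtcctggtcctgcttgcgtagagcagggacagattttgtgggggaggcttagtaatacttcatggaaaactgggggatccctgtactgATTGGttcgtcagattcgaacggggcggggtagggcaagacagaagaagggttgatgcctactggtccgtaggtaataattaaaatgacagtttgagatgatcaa
Fads2 promoter, chr19:10101454-10101753, minus strand: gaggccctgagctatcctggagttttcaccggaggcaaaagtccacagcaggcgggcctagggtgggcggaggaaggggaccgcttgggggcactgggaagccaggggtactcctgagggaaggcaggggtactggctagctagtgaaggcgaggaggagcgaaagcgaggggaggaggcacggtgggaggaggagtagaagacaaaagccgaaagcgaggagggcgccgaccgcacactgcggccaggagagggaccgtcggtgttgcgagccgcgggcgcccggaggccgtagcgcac

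The promoters differed in these letters. Hmgcs1 held the sterol element with its first base at position -137 from the RefSeq start of transcription, and CCAAT boxes on the opposite strand at -237, -176, -45 and 11. No annotated Hmgcs1 transcript held the last 25 bases of its window, unlike for Ebp and Fads2. The annotation of the counts begins Hmgcs1 at base 119690379, inside the window, so its positions depend on the start used. Ebp held CCAAT boxes at -170 and -55 and no TCACCCCAC, and the Fads2 window held neither. Searched on both strands, TCACCCCAC was in 1 of the 25 promoters (Hmgcs1) and in 0.61% of the promoters of all 27025 genes in the table. CCAAT was in 20 of 25 (80.0%) against 41.06% of all genes, the Sp1 box GGGCGG in 21 of 25 (84.0%) against 38.20%, and the E-box CACGTG in 5 of 25 (20.0%) against 8.09%. The 4 motifs were searched as exact letters, and a match is a description of the sequence only.

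The libraries held 16868501 to 24918582 reads assigned to genes. Macrophage markers were high in every library (Adgre1, which encodes F4/80, at 8281 to 15908 CPM, the count scaled to library depth), while the adipocyte markers, of a cell type with much fatty acid synthesis, summed to at most 0.512 CPM, with Adipoq at 2 reads over all 24 libraries. The macrophage marker Lyz2, the lysozyme M gene, varied from 1421 to 11692 CPM. Untreated, it was at 6091, 5306 and 6827 CPM in libraries labelled MyS2KO and 10972, 11692 and 11032 CPM in Smad2fl/fl (not called, edgeR adjusted p = 0.502). It was at 4391, 2023 and 2269 CPM in untreated MyS3KO and 2773, 2549 and 6818 CPM in untreated Smad3fl/fl libraries. Smad3 RNA was at 209, 181 and 161 CPM in untreated MyS3KO and 443, 460.0 and 369 CPM in untreated Smad3fl/fl libraries, a log2 difference of -1.21 ± 0.14 (SE; edgeR quasi-likelihood test, Benjamini-Hochberg adjusted p = 6.91e-06), and it differed by -0.63 ± 0.13 under TGF-β1 (edgeR adjusted p = 0.00208); both untreated groups were above the 26.4 to 66.6 CPM of the 12 Smad2-line libraries. Smad2 RNA was not called lower in the libraries labelled MyS2KO (log2 difference -0.06 ± 0.12 untreated and 0.09 ± 0.12 under TGF-β1, edgeR adjusted p = 0.924 and 0.891), and gene counts do not resolve the deleted exons. The 6 Smad3fl/fl libraries stood apart from the other 18: ribosomal protein transcripts took 0.9 to 1.491% of their reads, against 1.611 to 2.444% in the others, and untreated Smad3fl/fl library 3 lay away from libraries 1 and 2 on the first principal component of all genes (6.93, against 63.8 and 68.7). The part of these differences in the results below was not tested, and results that rest on Smad3fl/fl library 3 are given with and without it.

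Levels between genes were compared per length, as the deposited FPKM values (fragments per kilobase of gene, scaled to library depth). Over the 24 libraries the lanosterol demethylase gene Cyp51 had the highest mean at 137 FPKM. It was followed by Srebf2, the factor that chiefly drives the sterol genes, at 132 FPKM, by Acly, which makes cytosolic acetyl-CoA from citrate, at 123 FPKM, and by the sterol methyl oxidase gene Msmo1 at 111 FPKM. At the other end were the farnesyl diphosphate synthase gene Fdps at 1.87 FPKM, the stearoyl-CoA desaturase gene Scd1 at 1.5 FPKM and the fatty acid elongase gene Elovl6 at 0.425 FPKM. The Fdps annotation overlaps that of Gm43738 by 7512 bases on the same strand, and whether reads there went uncounted was not tested. The Fdps level may thus be an underestimate. The desaturase level came mostly from Scd2, at 20.5 FPKM. Srebf1, whose product chiefly drives the fatty acid genes, stood at 50.8 FPKM and Insig1 at 73.1 FPKM.

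The regulators varied least between libraries and the low enzymes most. The highest library exceeded the lowest by 1.69-fold for Srebf1, 1.87-fold for Insig2, 2.16-fold for Insig1, 2.26-fold for Scap, 2.50-fold for Acly and 2.65-fold for Srebf2 on the CPM scale, and these were the 6 genes under 3-fold. For 19 genes the range was over 4-fold, up to 15.1-fold for Fads2, 19.7-fold for Scd1 and 26.2-fold for Fdps. Fdps and Elovl6 had few reads (1092 and 508 over all libraries), so counting error adds to their range. In a principal component analysis of the 32 genes alone, the first component held 74.58% of the variance and 31 of 32 genes had loadings of the same sign, Insig2 being the exception.

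**Figure D1:**
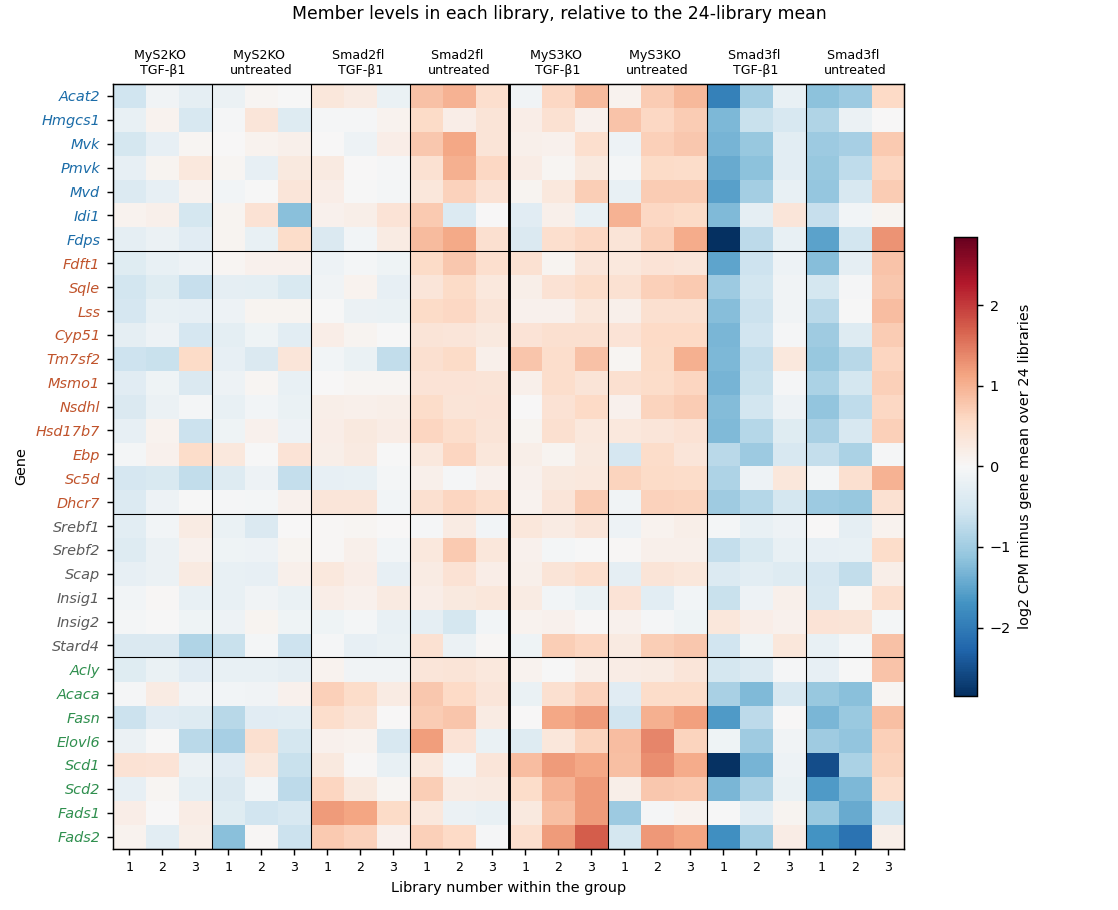
Log2 CPM of the 32 genes in the 24 libraries, each gene centred on its mean over the libraries; rows are genes in their 4 roles, columns are libraries by group, and the colour is the log2 deviation (plots write Smad2fl and Smad3fl for Smad2fl/fl and Smad3fl/fl). Smad3fl/fl libraries 1 and 2 are low for most genes under both treatments, Smad3fl/fl library 3 is closer to the other genotypes, and the Insig2 row runs against the others.

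The mean log2 deviation of the 32 genes from their means over all libraries shows the same spread by group. It ran from 0.151 to 0.532 in treated and from 0.131 to 0.577 in untreated MyS3KO libraries, against -1.107 to -0.104 in treated and -0.881 to 0.513 in untreated Smad3fl/fl libraries. It ran from -0.258 to -0.114 in treated and from -0.228 to -0.049 in untreated libraries labelled MyS2KO, against -0.018 to 0.176 in treated and 0.252 to 0.474 in untreated Smad2fl/fl libraries. Library 3 was the highest of its 3 for 31 of 32 genes in untreated and for 29 of 32 in treated Smad3fl/fl macrophages. MyS3KO library 1 was the lowest of its 3 for 26 genes untreated and for 20 under TGF-β1.

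MyS3KO was compared with its floxed reference first under TGF-β1, where most genes of the pathway differed. Of the 32 genes, 23 were higher in TGF-β1-treated MyS3KO than in treated Smad3fl/fl macrophages and 0 lower at an adjusted p under 0.05, 71.9% of the set, beside 28.2% of all 14261 genes in either direction (15% higher). The median log2 difference of the set was 0.93, against 0.01 for all genes. The call was made for 5 of 7 genes up to farnesyl diphosphate, 10 of 11 from squalene to cholesterol, 2 of 6 regulators and 6 of 8 fatty acid genes. In bulk RNA, fewer cells with a transcript and less of it per cell cannot be told apart.

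Of the genes called, the desaturase genes Scd1, Fads2 and Scd2 had the largest log2 differences, followed by Fasn at 1.5 ± 0.48. Scd1 was at 11, 14.1 and 12.9 CPM in treated MyS3KO libraries and at 0.77, 2.33 and 5.37 CPM in treated Smad3fl/fl libraries, a log2 difference of 2.19 ± 0.54 (SE, adjusted p = 0.00593, edgeR). Scd2, the main desaturase of these cells by level, was at 143, 193 and 231 CPM in treated MyS3KO libraries and at 40.5, 52.4 and 87.1 CPM in treated Smad3fl/fl libraries (log2 difference 1.66 ± 0.39, edgeR adjusted p = 0.00387). For both genes every MyS3KO library was above every Smad3fl/fl library. Fads2, the delta-6 desaturase of polyunsaturated fatty acids, was at 7.91, 13.4 and 19.0 CPM in treated MyS3KO libraries against 1.63, 2.86 and 6.6 CPM in treated Smad3fl/fl libraries (log2 difference 1.88 ± 0.54, edgeR adjusted p = 0.0135), again with no overlap. The Scd1 and Scd2 calls held without any 1 library of either group, while Fads2 lost its call without Smad3fl/fl library 1 or 2 or without MyS3KO library 3 (adjusted p up to 0.0692 over all fits).

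Among the sterol enzymes, Hmgcs1, which condenses acetoacetyl-CoA to HMG-CoA, was at 92.5, 109 and 87.7 CPM in treated MyS3KO libraries and at 33.2, 51.6 and 59.0 CPM in treated Smad3fl/fl libraries. Its log2 difference was 1.01 ± 0.22 (edgeR adjusted p = 0.00219), and it kept its call in every fit that was run, leave-one-out fits included. Acat2, the first enzyme of the route, differed by 1.42 ± 0.40, Mvk, the mevalonate kinase gene, by 1.11 ± 0.36 and Sqle, which encodes the squalene epoxidase, by 0.88 ± 0.23 on the log2 scale. The genes that did not reach the threshold were Idi1 (0.15), Fdps (1.30), Sc5d (0.39), Srebf2 (0.44), Insig1 (0.17), Insig2 (-0.12), Stard4 (0.51), Acly (0.38) and Elovl6 (0.69). The 2 regulators that did were Srebf1 (0.44 ± 0.14) and Scap (0.69 ± 0.21).

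How many of the 23 calls held depended on single libraries. The count fell to 7 without treated Smad3fl/fl library 2 (Hmgcs1, Sqle, Hsd17b7, Dhcr7, Scd1, Scd2 and Acaca; 15.1% of all genes were then called), to 8 without library 1 (18.8% of all genes) and to 9 without treated MyS3KO library 3 (17.5%), and it was 24 without Smad3fl/fl library 3 (22.3%). A fit of the Smad3 line alone called 11 (22.2% of all genes). The Fdft1 count may include reads of Ctsb, a cathepsin gene with 6334106 reads against 43182 for Fdft1, since their annotations overlap by 774 bases on opposite strands and the strand setting of the counting is not given in the sources used here.

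**Figure D2:**
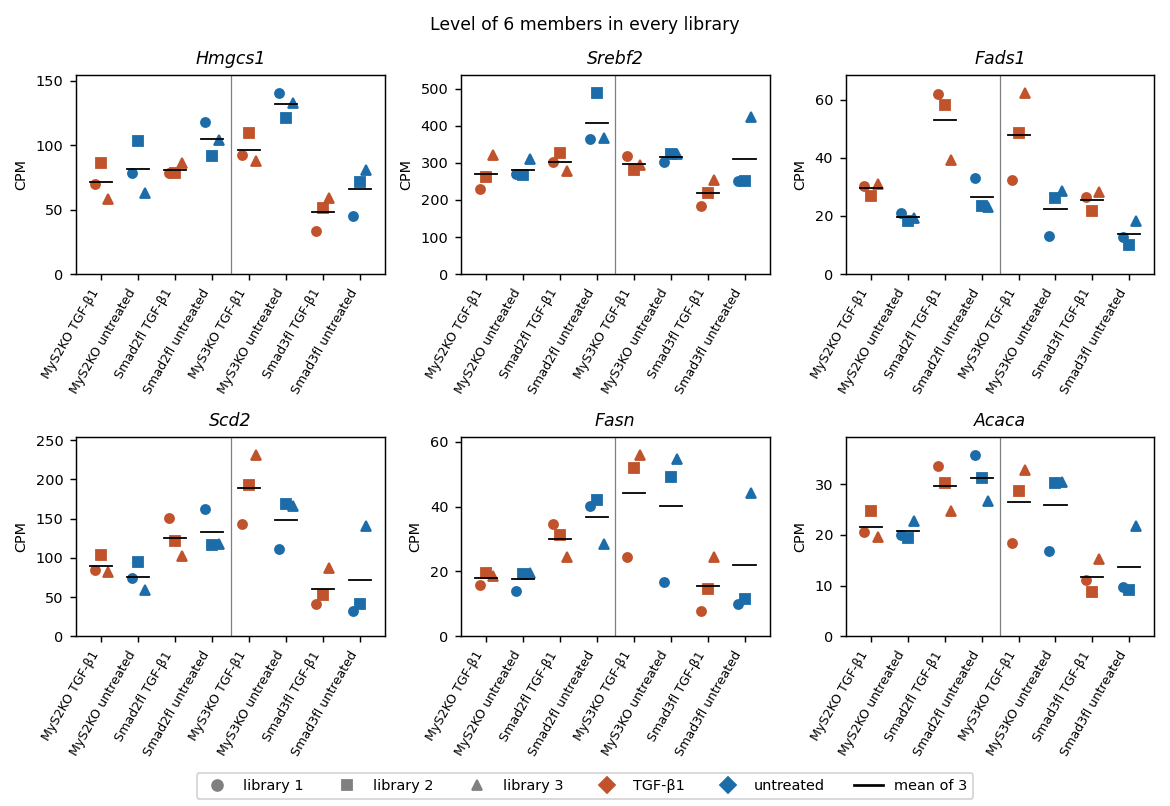
CPM (linear axis from 0) of 6 genes in each library by group; the marker shape gives the library number, the colour the treatment, and the black line the mean of the 3 libraries. For Hmgcs1, Scd2 and Acaca the 3 treated MyS3KO libraries lie above the 3 treated Smad3fl/fl libraries, and untreated Smad3fl/fl library 3 lies above libraries 1 and 2.

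Without TGF-β1 fewer genes passed. In untreated MyS3KO against untreated Smad3fl/fl macrophages 5 of 32 genes were higher and 0 lower, beside 17.7% of all genes in either direction and 8.37% higher. They were Hmgcs1, the sterol isomerase gene Ebp (0.70), Scd1, the acetyl-CoA carboxylase gene Acaca (0.93) and Fads2. The median log2 difference of the set was 0.58, against -0.03 for all genes, and 29 of 32 genes were above 0. All 5 were also among the genes called higher under TGF-β1. Same-numbered Smad3fl/fl libraries deviated together across treatments, so the 2 comparisons are not independent.

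Hmgcs1 was at 141, 121 and 133 CPM in untreated MyS3KO libraries and at 44.8, 71.7 and 80.7 CPM in untreated Smad3fl/fl libraries, with no overlap and a log2 difference of 1.00 ± 0.22 (edgeR adjusted p = 0.00279). Scd1 was at 10.9, 15.2 and 12.6 CPM in untreated MyS3KO libraries against 0.958, 3.15 and 9.35 CPM in untreated Smad3fl/fl libraries (1.53 ± 0.52, edgeR adjusted p = 0.0447). Fads2 was at 3.99, 13.6 and 12.5 CPM in untreated MyS3KO libraries against 1.68, 1.26 and 6.39 CPM in untreated Smad3fl/fl libraries (1.70 ± 0.54, edgeR adjusted p = 0.0321). The Fads2 groups overlapped, because MyS3KO library 1 lay below Smad3fl/fl library 3. Acaca also overlapped, with 16.8, 30.3 and 30.4 CPM in untreated MyS3KO libraries against 9.82, 9.14 and 21.8 CPM in untreated Smad3fl/fl libraries. In all, 3 of 32 genes were higher in MyS3KO without overlap, against 10.8% of all genes.

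Untreated Smad3fl/fl library 3 decided this count. Without it, 26 genes were higher and 1 lower (27 in all; 24.3% of all genes were then called), and the median log2 difference of the set was 1.18. The lower gene was Insig2, at -0.38, and the genes not called were Srebf1, Srebf2, Insig1, Sc5d and Idi1. The count was 1 without untreated Smad3fl/fl library 1 (10.7% of all genes) or 2 (9.33%), or without untreated MyS3KO library 2 (9.71%) or 3 (9.36%). Hmgcs1 was the gene of the 5 that stayed called in every fit run (log2 difference 0.80 to 1.2). For Fasn, which encodes fatty acid synthase, the 3 untreated MyS3KO libraries were at 16.6, 49.0 and 54.6 CPM and the 3 untreated Smad3fl/fl libraries at 9.86, 11.6 and 44.3 CPM. Each group thus held 1 library near the level of the other, and Fasn was not called (0.88 ± 0.47).

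**Figure D3:**
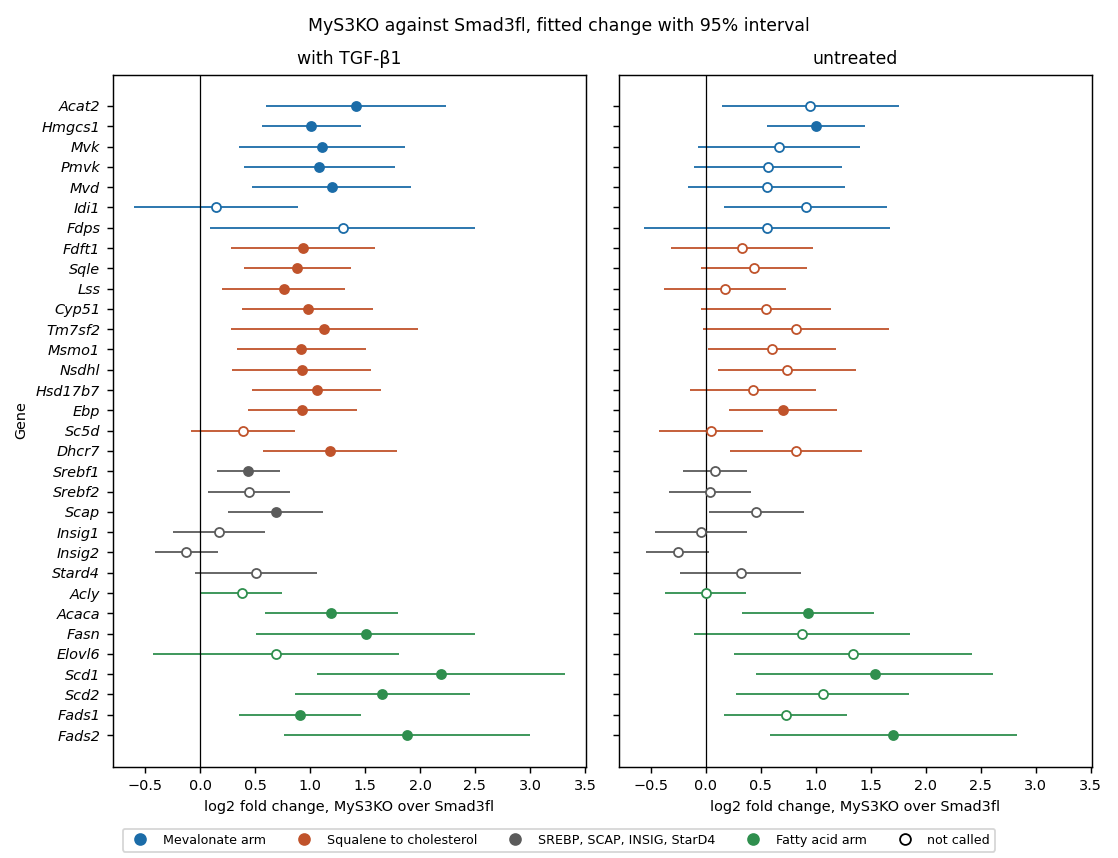
Log2 difference of MyS3KO over Smad3fl/fl for each of the 32 genes with its 95% confidence interval, under TGF-β1 and untreated; filled points passed an adjusted p under 0.05 in edgeR, and the colour gives the role. Most points lie above 0 under both treatments, with 23 filled under TGF-β1 and 5 untreated, and Insig2 lies below 0 in both.

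The response of these genes to TGF-β1 was not shown to differ between MyS3KO and Smad3fl/fl. In the interaction, the TGF-β1 response of MyS3KO minus that of Smad3fl/fl, edgeR called 0 of 32 genes, beside 0.021% of all genes. At an unadjusted p under 0.05 there were 0 as well, and DESeq2 called 0. The smallest p belonged to Srebf1, at 92.8, 86.3 and 94.0 CPM in treated and 66.6, 78.5 and 83.1 CPM in untreated MyS3KO libraries, against 70.9, 63.7 and 67.1 CPM in treated and 74.1, 62.0 and 79.4 CPM in untreated Smad3fl/fl libraries. Its interaction was 0.35 ± 0.20 on the log2 scale, with a 95% confidence interval from -0.05 to 0.76 (edgeR adjusted p = 0.728). The median interaction of the set was 0.36 and was -0.18 without untreated Smad3fl/fl library 3.

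In the Smad2 line no gene of the set passed. Between the libraries labelled MyS2KO and the Smad2fl/fl libraries edgeR called 0 of 32 genes untreated, beside 0.0701% of all genes, and 0 of 32 under TGF-β1, beside 0.421% of all genes. At an unadjusted p under 0.05, 0 were higher and 7 lower untreated, and 0 higher and 1 lower under TGF-β1; DESeq2 called 0 in both. The values nonetheless lay mostly on one side: untreated, 31 of 32 genes had a log2 difference below 0, with a median of -0.52 against 0.01 for all genes, and for 20 genes every library labelled MyS2KO was below every Smad2fl/fl library, against 7.93% of all genes. Under TGF-β1 the median was -0.27, 28 genes were below 0 and 14 did not overlap, against 10% of all genes. These genes share the same libraries and vary together, so they are not independent counts.

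Acly had the smallest untreated p of the set in this line. It was at 247, 249 and 242 CPM in untreated libraries labelled MyS2KO and at 365, 368 and 352 CPM in untreated Smad2fl/fl libraries, which did not overlap, and its log2 difference was -0.55 ± 0.18 (edgeR adjusted p = 0.323). Fasn was at 14.1, 19.3 and 19.6 CPM in untreated libraries labelled MyS2KO and at 40.1, 41.9 and 28.4 CPM in untreated Smad2fl/fl libraries (-1.06 ± 0.48, edgeR adjusted p = 0.534). Under TGF-β1 the smallest p belonged to Fads1, at 30.4, 26.9 and 31.1 CPM in treated libraries labelled MyS2KO and 62.1, 58.1 and 39.2 CPM in treated Smad2fl/fl libraries (-0.85 ± 0.27, edgeR adjusted p = 0.204). Over the whole table, few genes passed in this line, and a fit of the Smad2 line alone called 3 genes of the set untreated, beside 0.161% of all genes, and 1 under TGF-β1, beside 1.09% of all genes.

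The interaction in the Smad2 line also had 0 of 32 genes called by edgeR (0.00701% of all genes), 0 at an unadjusted p under 0.05, and 0 by DESeq2. Srebf2 had the smallest p. It was at 229.7, 261 and 321 CPM in treated and 269, 267 and 309 CPM in untreated libraries labelled MyS2KO, against 303, 328 and 278 CPM in treated and 365, 489.6 and 369 CPM in untreated Smad2fl/fl libraries. Its interaction was 0.37 ± 0.25, with a 95% confidence interval from -0.16 to 0.89 (edgeR adjusted p = 0.9999).

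By the fit of all 24 libraries, TGF-β1 raised Fads1, the delta-5 desaturase of polyunsaturated fatty acids, in 3 genotypes. In the libraries labelled MyS2KO that fit made no call, while a fit that paired same-numbered libraries did. The labels give no such pairing, which was chosen from these same data. Fads1 was at 62.1, 58.1 and 39.2 CPM in treated and 33, 23.6 and 23.0 CPM in untreated Smad2fl/fl libraries, a log2 response of 1.00 ± 0.27 (edgeR adjusted p = 0.0151). In Smad3fl/fl macrophages it was at 26.6, 21.6 and 28.3 CPM treated and 12.7, 9.86 and 18.4 CPM untreated (0.90 ± 0.27, edgeR adjusted p = 0.0305). In MyS3KO macrophages it was at 32.3, 48.6 and 62.4 CPM treated and 12.9, 26.1 and 28.5 CPM untreated (1.08 ± 0.27, edgeR adjusted p = 0.00926). In the libraries labelled MyS2KO it was at 30.4, 26.9 and 31.1 CPM treated and 20.8, 18.3 and 19.3 CPM untreated, a response of 0.60 ± 0.27 that was not called (edgeR adjusted p = 0.368; 0.0083 with the replicate number as a block) and whose groups did not overlap. In each of the 4 genotypes every treated library was above every untreated one. The call was lost without untreated library 2 or 3 or treated library 1 or 2 of Smad2fl/fl (adjusted p up to 0.0960), without untreated library 1 or 2 or treated library 1 or 3 of Smad3fl/fl, and without untreated library 1 or treated library 3 of MyS3KO, with the response between 0.69 and 1.29 in these 3 genotypes over all fits. In a fit of the Smad3 line alone Fads1 was not called in Smad3fl/fl or in MyS3KO. Neither interaction was called for Fads1 (-0.40 ± 0.38 in the Smad2 line and 0.18 ± 0.38 in the Smad3 line).

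**Figure D4:**
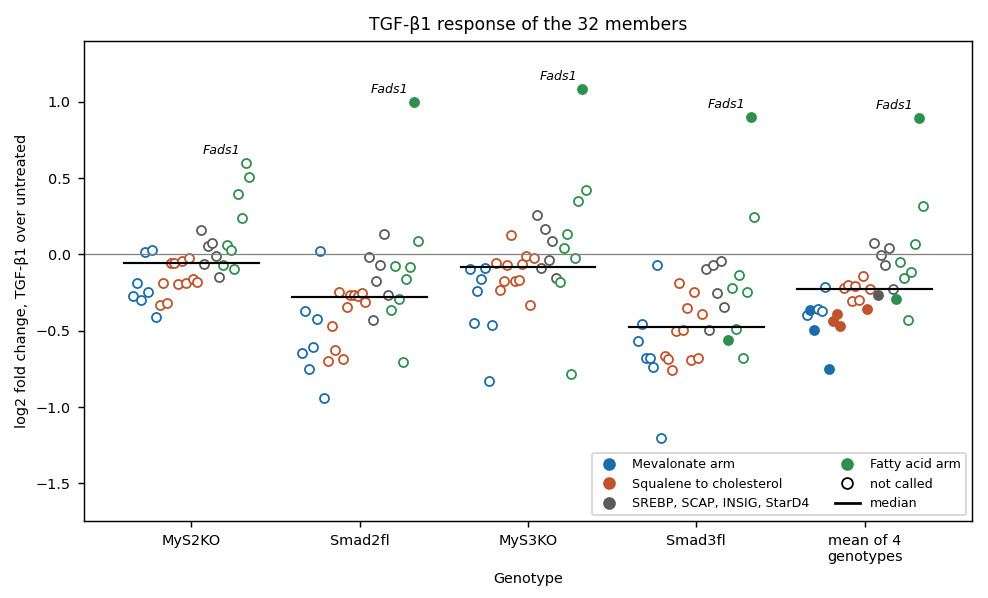
Log2 response to TGF-β1 (treated over untreated) of each of the 32 genes in the 4 genotypes and in their mean; points are edgeR estimates coloured by role, filled points passed an adjusted p under 0.05, and black lines are medians. Fads1 stands above the other genes in every genotype. Of the 32 genes, 28 lie below 0 in Smad2fl/fl, 30 in Smad3fl/fl, 21 in the libraries labelled MyS2KO and 23 in MyS3KO.

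In the fit of all 24 libraries few other genes of the set passed within a genotype. In Smad2fl/fl macrophages Fads1 was the 1 call, beside 11.1% of all genes, and 28 of 32 genes lay below 0 with a median log2 response of -0.28, against 0.01 for all genes. For 19 genes every treated Smad2fl/fl library was below every untreated one, against 16.1% of all genes. The count in Smad2fl/fl depended on the fit. It was higher in a fit of the Smad2 line alone (15.4% of all genes called) and with the replicate number as a block (22.7%), as given at the end. The libraries labelled MyS2KO had no call, 0 genes of 32, beside 3.41% of all genes, with 1 higher and 0 lower at an unadjusted p under 0.05 and 0 by DESeq2, and the median was -0.06. In MyS3KO macrophages Fads1 was the 1 call, beside 10% of all genes, with a median of -0.08. In Smad3fl/fl macrophages there were 2 calls, beside 12% of all genes, with a median of -0.47.

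The second call in Smad3fl/fl macrophages was Acly, at 202, 219.8 and 279 CPM in treated and 244, 284 and 505 CPM in untreated libraries (-0.56 ± 0.18, edgeR adjusted p = 0.0424). It rested on untreated library 3: without that library the response of Acly was -0.19 (edgeR adjusted p = 0.476) and the median of the set was 0.06. The count of calls was 12 without untreated library 1 (13.6% of all genes were then called) and 7 without treated library 3 (9.85%). It was 1 without untreated library 3 (8.44%) or treated library 2 (8.74%), and 0 without treated library 1 (7.73%). In this genotype libraries of the same number deviated together. In the libraries labelled MyS2KO pairing is less clear, since the highest correlation between unlike numbers was 0.197, above that of number 1 at 0.154. The fit with the replicate number as a block is given here for both. With the block, 15 genes were called in Smad3fl/fl macrophages, beside 23.2% of all genes: Fads1 was higher (0.94) and 14 were lower, among them Fdps (-1.09), the sterol desaturase gene Sc5d (-0.69) and Lss (-0.68), which encodes lanosterol synthase. By number, 26, 21 and 28 of the 32 genes were lower in the treated library, with median changes of -0.29, -0.14 and -0.73. With the block Fads1 was called in the libraries labelled MyS2KO too (0.60), the 1 call of 32 there, beside 7.24% of all genes.

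Averaged over the 4 genotypes, the response to TGF-β1 was called in the set about as often as in all genes. The mean response was called for 10 of 32 genes, beside 30.1% of all genes. Of these 9 were lower, beside 13.9% of all genes lower, and 1 was higher (Fads1, 0.90 ± 0.13, edgeR adjusted p = 1.58e-05). The lower genes were 3 of 7 up to farnesyl diphosphate (Hmgcs1, Mvk, Fdps), 4 of 11 from squalene to cholesterol (Fdft1, Sqle, Lss, Sc5d), 1 of 6 regulators (Srebf2) and 1 of 8 fatty acid genes (Acly). The changes were small, with a median of -0.23 for the set against -0.01 for all genes. The count was 6 without untreated Smad2fl/fl library 2 (26.6% of all genes were then called) or treated Smad3fl/fl library 1 (26.2%). It was 16 without untreated Smad3fl/fl library 1 (31%). Fdps had the largest mean response among the lower genes, -0.75 ± 0.28 (edgeR adjusted p = 0.0444), followed by Mvk at -0.49 ± 0.18 (edgeR adjusted p = 0.0407) and Lss at -0.47 ± 0.13 (edgeR adjusted p = 0.0105).

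Lss was at 86.9, 78.6 and 77.8 CPM in treated and 128, 133 and 114 CPM in untreated Smad2fl/fl libraries, and at 63.3, 76.1 and 75.0 CPM in treated and 79.6, 93.5 and 93.7 CPM in untreated libraries labelled MyS2KO. In MyS3KO it was at 95.6, 95.5 and 109.7 CPM treated and 98.1, 120.3 and 122 CPM untreated, and in Smad3fl/fl at 38.0, 57.4 and 82.4 CPM treated and 51.7, 87.1 and 162 CPM untreated. The treated and untreated libraries were thus separate in the Smad2 line and overlapped in the Smad3 line. Fdps was at 1.4, 1.81 and 2.24 CPM in treated and 3.66, 4.13 and 2.65 CPM in untreated Smad2fl/fl libraries, 1.59, 1.68 and 1.52 CPM in treated and 2.00, 1.62 and 2.77 CPM in untreated libraries labelled MyS2KO, 1.41, 2.68 and 2.90 CPM in treated and 2.50, 3.11 and 4.07 CPM in untreated MyS3KO libraries, and 0.181, 1.1 and 1.62 CPM in treated and 0.599, 1.31 and 4.74 CPM in untreated Smad3fl/fl libraries. Mvk was at 10.9, 9.78 and 12.4 CPM in treated and 18.4, 23.3 and 14 CPM in untreated Smad2fl/fl libraries, 7.62, 9.16 and 11.2 CPM in treated and 10.9, 11.6 and 12.0 CPM in untreated libraries labelled MyS2KO, 11.9, 11.8 and 15.1 CPM in treated and 9.84, 17.4 and 18.5 CPM in untreated MyS3KO libraries, and 4.26, 5.10 and 8.73 CPM in treated and 5.23, 5.54 and 18.2 CPM in untreated Smad3fl/fl libraries. Both separated fully in Smad2fl/fl alone. Lss kept its call in every fit run, while Mvk and Fdps lost theirs without any of several single libraries (adjusted p up to 0.111 for Mvk and 0.161 for Fdps, both without untreated Smad3fl/fl library 3).

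The 2 floxed references were compared with each other untreated. With both directions counted together the set was called about as often as all genes, but its calls were mostly lower. In untreated Smad3fl/fl against untreated Smad2fl/fl macrophages 1 gene was higher and 9 lower, beside 33.4% of all genes (17.7% higher and 15.6% lower). The median log2 difference was -0.60 for the set against 0.07 for all genes. Insig2 was the higher one, at 25.9, 25.5 and 19.0 CPM in Smad3fl/fl and 16.5, 13.9 and 18.6 CPM in Smad2fl/fl libraries (0.52 ± 0.14, edgeR adjusted p = 0.00604). The largest of the lower ones was Acaca, at 9.82, 9.14 and 21.8 CPM in Smad3fl/fl and 35.8, 31.2 and 26.6 CPM in Smad2fl/fl libraries (-1.20 ± 0.29, edgeR adjusted p = 0.00348). Acat2 was at 7.70, 8.51 and 26.0 CPM in Smad3fl/fl and 31.4, 35 and 24.5 CPM in Smad2fl/fl libraries (-1.11 ± 0.39, edgeR adjusted p = 0.0319), overlapping through library 3. Fads1 differed by -0.96 ± 0.27 (edgeR adjusted p = 0.00983), and Hmgcs1, Mvk, Pmvk, Ebp, Dhcr7 and Scap were the other lower genes. Without untreated Smad3fl/fl library 3 the count was 27, beside 40.5% of all genes. It was 5 without Smad2fl/fl library 2 (21.2% of all genes) or Smad3fl/fl library 1 (22.6%) and 4 without Smad3fl/fl library 2 (18.7%). No gene differed between the lines in the floxed TGF-β1 response (0 called of 32 and 0% of all genes by edgeR, 0 by DESeq2); Sc5d had the smallest p there (-0.42 ± 0.32).

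Between the knockouts the direction was the other way. In untreated MyS3KO libraries against untreated libraries labelled MyS2KO 3 genes were higher and 0 lower, beside 5.97% of all genes, with a median of 0.54 against 0.02 for all genes. Stard4, which encodes a cytosolic sterol carrier, was at 53.5, 71.8 and 75.3 CPM in MyS3KO libraries and 28.7, 42.9 and 29.5 CPM in libraries labelled MyS2KO (0.99 ± 0.27, edgeR adjusted p = 0.0304). Sc5d was at 147, 139 and 136 CPM in MyS3KO and 73.5, 86.2 and 59.3 CPM in libraries labelled MyS2KO (0.95 ± 0.23, edgeR adjusted p = 0.0154). Sqle was at 139, 165 and 173 CPM in MyS3KO and 87.0, 86.0 and 76.6 CPM in libraries labelled MyS2KO (0.93 ± 0.23, edgeR adjusted p = 0.0188). None of the 3 overlapped, and 16 of 32 genes did not, against 12.1% of all genes higher without overlap. The count was 1 without MyS2KO library 1 (3.23% of all genes) or MyS3KO library 2 (2.77%) or 3 (2.9%), and 0 without MyS2KO library 3 (2.59%). The 2 lines have no common control, so line and knockout cannot be told apart in this comparison.

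Related genes of lipid metabolism were read from 3 further lists. Of 19 genes of lipid synthesis around the pathway, 7 were higher and 1 lower in treated MyS3KO than in treated Smad3fl/fl macrophages, beside 28.2% of all genes in either direction, and 1 higher and 1 lower untreated, beside 17.7% of all genes. The smallest p was that of Acss2, which makes acetyl-CoA from acetate and is itself an SREBP target: it averaged 41.0 ± 8.56 CPM in treated MyS3KO and 17.3 ± 4.54 CPM in treated Smad3fl/fl macrophages (SD, n = 3; log2 difference 1.24 ± 0.23, edgeR adjusted p = 0.000614), and differed by 0.88 ± 0.22 untreated (edgeR adjusted p = 0.00843). Of 10 tested genes of fatty acid oxidation, the opposite process, 7 were higher and 0 lower in treated MyS3KO than in treated Smad3fl/fl macrophages, beside 15% of all genes higher, and 3 higher and 0 lower untreated, beside 8.37% of all genes higher. Acadl, the long-chain acyl-CoA dehydrogenase gene, averaged 52.7 ± 2.36 CPM in treated MyS3KO and 17.1 ± 5.02 CPM in treated Smad3fl/fl macrophages (SD, n = 3; 1.63 ± 0.27, edgeR adjusted p = 0.000257), and differed by 1.48 ± 0.26 untreated (edgeR adjusted p = 0.000585).

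Of 12 genes of LXR signalling, sterol export, storage and trafficking, 5 were higher and 2 lower in treated MyS3KO than in treated Smad3fl/fl macrophages, beside 28.2% of all genes in either direction, with the lysosomal lipase gene Lipa at the smallest p (0.77 ± 0.13, edgeR adjusted p = 0.000351), and 3 higher and 2 lower untreated, beside 17.7% of all genes, with the cholesterol exporter gene Abcg1 at the smallest p (0.86 ± 0.17, edgeR adjusted p = 0.00135). In the mean TGF-β1 response, where 30.1% of all genes were called (16.2% higher and 13.9% lower), 4 of the 12 were higher and 2 lower. The cholesterol exporter gene Abca1 had a mean response of 1.55 ± 0.10 (edgeR adjusted p = 4.73e-11), in the opposite direction to the 9 lowered genes of synthesis. In the same response 5 of 19 lipid synthesis genes were higher and 3 lower, the smallest p being that of Mid1ip1, whose product activates acetyl-CoA carboxylase (-0.55 ± 0.10, edgeR adjusted p = 0.000237), and 1 of 10 oxidation genes was higher (Cpt1a, 0.36 ± 0.07, edgeR adjusted p = 0.000593) and 3 lower. No gene of these 3 lists was called by edgeR between the libraries labelled MyS2KO and Smad2fl/fl under either treatment, where 5 had an unadjusted p under 0.05 untreated and 5 under TGF-β1.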

How the data were processed

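PolyA RNA of 24 libraries was sequenced as paired-end reads. The deposited table holds read counts and FPKM per gene, and the tools were HTSeq 0.6.1, TopHat2 2.0.9 and Cufflinks 2.1.1, with the builds mm10 and GRCm38.p6, per the submitters' processing notes. The deposited gene lengths served as annotation. The deposited FPKM values follow from the counts and 1 length per gene, so they are a second unit and not a second measurement. The strand setting of the counting is not given in the sources used here, and the labels' protocols speak of 8 libraries where 24 samples are given.

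Genes with low counts over the 8 groups were removed (edgeR filterByExpr), libraries were scaled by TMM, and 1 edgeR 4.0.16 quasi-likelihood fit with a mean per group gave the 14 comparisons, with 16 residual degrees of freedom and a median biological coefficient of variation of 21.22%. P-values were adjusted by Benjamini-Hochberg over all 14261 genes with calls made below an adjusted p of 0.05. CPM used the TMM-scaled totals, and log2 CPM for the principal components and deviations used a prior count of 2. A fold change is TGF-β1 over untreated or knockout over floxed. Of the 54532 genes, 26189 had no reads. The totals of 16868501 to 24918582 counts limit the precision of the lowest genes. The test was checked on simulated counts before use.

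The genes and lists were chosen with earlier results of these data known. A gene is given with its value in every library where it was called in a comparison and among the 3 largest log2 changes in its direction; where none was called, the gene with the smallest p is named. Fasn and the other genes given with values were added after their values were seen. Related genes are those with the smallest p of their list. Alternatives were DESeq2 1.42.0, upper-quartile scaling, no filter on low counts, a fit per line, the replicate number as a block, and leaving out each library. Same-numbered libraries were taken as paired where the correlation of their deviations was over 0.1 for every number. For the TGF-β1 response this held in Smad3fl/fl (0.445, 0.345 and 0.334) and in the libraries labelled MyS2KO (0.154, 0.223 and 0.405) and not elsewhere. The highest correlation between unlike numbers was -0.092 in Smad3fl/fl and 0.197 in the libraries labelled MyS2KO. In Smad2fl/fl the same-numbered values (0.047, 0.135 and 0.159) were above the highest of unlike numbers (0.038), but number 1 missed the cut-off.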

Additional observations from a re-analysis of the deposited data

How the results depend on the processing

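No called gene of the set, and no gene named for its smallest p where none was called, reversed under any alternative run. The other values given, among them those of the related genes, were not part of this check. Without untreated Smad3fl/fl library 3, 3 medians of the set changed sign. They were the TGF-β1 response in Smad3fl/fl (0.06), the Smad3-line interaction (-0.18) and the difference of the floxed responses (0.38). The last was also 0.06 without treated library 1 and 0.12 without number 3 in both treatments. In the TGF-β1 responses, DESeq2 called 5 genes in Smad3fl/fl (14.7% of all genes) and upper-quartile scaling 4 there (12.5%). Without the low-count filter 7 were called in Smad2fl/fl (6.27% of all genes), 14 in Smad3fl/fl (7.12%), 2 in MyS3KO (6.05%) and 17 in the mean response (15.9%). A fit per line called 9 in Smad2fl/fl (15.4% of all genes), 0 in Smad3fl/fl (8.99%) and 0 in MyS3KO (7.78%). With the replicate number as a block, 14 were called in Smad2fl/fl (22.7% of all genes) and 15 in Smad3fl/fl (23.2%). The block fit called 4 in MyS3KO, beside 19.3% of all genes, and 1 in the libraries labelled MyS2KO (7.24%). It called 18 in the mean response (40.2% of all genes) and 17 in untreated MyS3KO against Smad3fl/fl (17.4%). The block moved no other count by over 1.5 times.
In the genotype comparisons, DESeq2 called 9 in untreated MyS3KO against Smad3fl/fl (21.5% of all genes). Without the filter 5 were called in untreated libraries labelled MyS2KO against Smad2fl/fl (0.568% of all genes), 2 under TGF-β1 (1.1%), 18 in untreated MyS3KO against Smad3fl/fl (9.31%), 18 between the untreated floxed lines (16.7%) and 13 between the untreated knockouts (4.28%). A fit per line called 3 untreated (0.161% of all genes) and 1 under TGF-β1 (1.09%) in the libraries labelled MyS2KO against Smad2fl/fl. In MyS3KO against Smad3fl/fl it called 1 untreated (11.2% of all genes) and 11 under TGF-β1 (22.2%). The cause of these shifts was not tested.
Counts of calls were also taken with 1 library left out at a time, or 1 Smad3fl/fl number in both treatments. For TGF-β1 they were 0 to 1 in Smad2fl/fl, 0 in the libraries labelled MyS2KO, 0 to 12 in Smad3fl/fl, 0 to 1 in MyS3KO and 6 to 16 in the mean response. The libraries labelled MyS2KO against Smad2fl/fl had 0. In MyS3KO against Smad3fl/fl the counts were 1 to 27 untreated and 7 to 28 under TGF-β1. Under TGF-β1 the count was 10 without Smad3fl/fl number 2 in both treatments (16.4% of all genes) and 24 without treated Smad3fl/fl library 3 (22.3%). Counts were 3 to 27 between the floxed lines, 0 to 4 between the knockouts, and 0 in the interactions.
The share of all genes called also moved with the library left out. Depth limits Fdps and Elovl6, and 3 libraries per group limit every call.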
